A study of Mus musculus with 4 samples.

Results

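Proteins bound for the cell surface or for secretion enter the endoplasmic reticulum (ER) through the Sec61 channel, and are folded there by chaperones and by enzymes that form disulfide bonds. When unfolded proteins build up, the sensors IRE1, PERK and ATF6 start the unfolded protein response: IRE1 splices the mRNA of the transcription factor XBP1, PERK slows translation and raises ATF4 and CHOP, and ATF6 is cut to release a transcription factor. These factors raise chaperones, translocation genes and ER-associated degradation, which sends misfolded proteins to the proteasome. In the stomach the mucous cells are secretory cells with a heavy folding load, and AGR2, a disulfide isomerase of mucous cells, is known from mice for its part in making mucins.

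The genes described here are 44 genes of this system, taken as every gene probe of the array whose accession maps to 1 of the 44 symbols, among 21045 genes tested in all. Of those 21045, 13412 had a symbol, and the others are array accessions without a symbol, each counted as a gene. A named probe was found for 42 of the 44 members, on 70 probes. Dnajb11, a co-chaperone of BiP, and Pdia3, a disulfide isomerase that works with the lectin chaperones, had no named probe. All 42 were well above background on all 4 arrays and were tested, so no member was lost to the filter on dim probes.

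RNA was measured on 1-colour arrays in 2 samples of CD44+ and 2 samples of CD44- cells, both gated as negative for lineage markers and sorted from gastric tumours of K19-Wnt1/C2mE mice aged 30 weeks. In these mice the keratin 19 promoter drives Wnt1 along with 2 enzymes of prostaglandin E2 synthesis, Ptgs2 and Ptges, in the epithelium of the glandular stomach, and both groups carry these transgenes. The tumours were digested with enzymes for 3 h before sorting, and 25 ng of total RNA was amplified per sample. Whether the replicates are separate mice, pools or splits of 1 sort is not given in the labels, so the errors and p-values describe the spread of these 4 samples and may be technical. CD44 is a surface receptor for hyaluronan, and the comparison asks which transcripts go with it.

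Levels below are log2 of the processed signal relative to the 75th percentile of the same array, and a difference is always CD44+ minus CD44-, so that 1 unit is a 2-fold change. Cd44 itself stood at 6.31 and 6.54 on the CD44+ arrays, against 4.26 and 5.11 on the CD44- arrays, a difference of 1.74 ± 0.49 (SE) that did not pass over all genes (adjusted p = 0.199). The 2 CD44- arrays were unlike each other. The summed linear level of 6 fibroblast markers was 7.72 and 42.02 in CD44+ cells, against 67.8 and 450 in CD44- replicates 1 and 2. For 6 endothelial markers it was 0.368 and 0.825, against 3.50 and 64.4. Among 6 epithelial markers only Cldn4 was lower in CD44+ cells, where 1 of 2 arrays was well above background. Its log2 levels were -3.24 and -5.15, against -2.47 and -1.54 in CD44- cells (limma adjusted p = 0.252). The summed linear level of all 6 was 2082 and 1453, against 1943 and 821. By these sums CD44- replicate 2 had the most stromal and the least epithelial signal. For 3 mucous neck markers it was 1577 and 1449, against 861 and 461, and for 5 surface mucous markers 2784 and 1328, against 1761 and 1072, though the surface mucin Muc5ac ran the other way, with log2 levels of 0.26 and -1.02, against 5.78 and 2.77 (limma adjusted p = 0.105). For 7 mast cell markers it was 10.5 and 14.9, against 3.39 and 3.12. The part of these cell types in the results below was not tested. For 7 enteroendocrine markers it was 1.25 and 3.76, against 302 and 704, and for 6 squamous markers 15.96 and 2.58, against 197 and 326. Among 7 plasma cell markers, which matter because plasma cells carry much ER, the sum was 26.9 and 15.4, against 18.9 and 13.1. Most of it came from Sdc1, which epithelium also expresses. Irf4 was not above background on any array, and Jchain and Tnfrsf17 were not tested. For 5 chief cell markers the sum was 1.49 and 1.97, against 1.52 and 10.2. For 3 goblet-like markers it was 40.9 and 42.3, against 165 and 13.6. For 3 parietal markers it was 32.6 and 34.2, against 17.0 and 33.1. Of these Atp4b (difference -5.32) and Atp4a (-1.11) were lower in CD44+ cells and Kcnq1 (1.32) was higher, and none passed over all genes. Fewer cells of a type and less RNA per cell cannot be told apart in such samples.

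The ER stress element, a sequence that ATF6 and XBP1 bind together with NF-Y, was read from the promoters because it is the textbook mark of genes of this response. It was searched on both strands as CCAAT, then 9 bases of any kind, then CCACG, in RefSeq windows of build GRCm38.p6 that run from 250 bases before to 50 bases after the start of a gene. Of the 44 members 36 had a window, and 10 of these (27.8%) held the element, against 0.137% of the 27025 genes with a window and 0.119% of all 32851 windows. The 10 genes encode chaperones, folding enzymes and degradation factors. Hsp90b1 had 2 matches, which gave 11 in all, 6 on the strand of the gene and 5 on the opposite strand, and none overlapped a match of another motif searched. They lay between bases -212 and -26, counted backwards from base -1 just before the start. Each is printed on the strand of its gene with 20 bases on either side and the match in capitals, and a match on the opposite strand reads CGTGG, 9 bases, ATTGG.
Hspa5 (BiP), chr2:34772005-34772063, + strand: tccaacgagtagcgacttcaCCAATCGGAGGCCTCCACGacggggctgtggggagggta
Hsp90b1 (GRP94), first match, chr10:86705618-86705676, - strand: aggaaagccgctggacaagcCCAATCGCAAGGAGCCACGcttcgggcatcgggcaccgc
Hsp90b1, second match, chr10:86705513-86705571, - strand: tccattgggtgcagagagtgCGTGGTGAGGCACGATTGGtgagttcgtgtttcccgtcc
Calr (calreticulin), chr8:84847055-84847113, - strand: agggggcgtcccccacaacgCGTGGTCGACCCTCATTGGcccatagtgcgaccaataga
Canx (calnexin), chr11:50325780-50325838, - strand: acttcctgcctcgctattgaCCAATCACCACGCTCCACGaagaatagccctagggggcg
Dnajc3 (p58IPK), chr14:118937807-118937865, + strand: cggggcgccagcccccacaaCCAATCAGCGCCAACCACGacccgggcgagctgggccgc
Creld2, chr15:88819500-88819558, + strand: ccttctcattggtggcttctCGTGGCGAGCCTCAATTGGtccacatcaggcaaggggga
Pdia6, chr12:17266471-17266529, + strand: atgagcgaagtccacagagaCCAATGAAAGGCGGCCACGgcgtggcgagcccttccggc
Ero1b, chr13:12565662-12565720, + strand: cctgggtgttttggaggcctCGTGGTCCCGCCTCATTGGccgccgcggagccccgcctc
Syvn1 (HRD1), chr19:6046512-6046570, + strand: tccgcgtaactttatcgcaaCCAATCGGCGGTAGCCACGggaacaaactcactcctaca
Derl3, chr10:75893222-75893280, + strand: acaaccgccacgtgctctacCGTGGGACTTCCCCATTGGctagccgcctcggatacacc

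The other motifs of the response were rarer among the members. The second ER stress element, ATTGG, 1 base of any kind, then CCACG, was in the windows of Herpud1 and Dnajb11 (5.56% of 36, against 0.0444% of all genes). The core of the CHOP and ATF4 response element, TGATGNAA, was in those of Herpud1 and Trib3 (5.56%, against 4.51% of all genes). The core of the unfolded protein response element, TGACGTGG, was in 0 of the 36, against 0.714% of all genes. A match is a description of letters and not a bound site. The 150 bases before the start of Herpud1, a gene of ER-associated degradation that holds both motifs, are printed first, with the CHOP and ATF4 core (on the opposite strand) and the second ER stress element in capitals. Those of Agr2 and Ppp1r15a, among the members with the largest differences in either direction, follow, and hold none of the motifs.
Herpud1, chr8:94386279-94386428, + strand: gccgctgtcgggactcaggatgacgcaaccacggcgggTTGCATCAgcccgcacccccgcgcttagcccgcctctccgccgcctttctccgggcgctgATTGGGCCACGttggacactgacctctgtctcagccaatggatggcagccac
Agr2, chr12:35992775-35992924, + strand: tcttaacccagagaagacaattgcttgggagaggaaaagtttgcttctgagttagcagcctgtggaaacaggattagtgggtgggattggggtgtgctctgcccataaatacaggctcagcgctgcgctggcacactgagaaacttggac
Ppp1r15a, chr7:45526269-45526418, - strand: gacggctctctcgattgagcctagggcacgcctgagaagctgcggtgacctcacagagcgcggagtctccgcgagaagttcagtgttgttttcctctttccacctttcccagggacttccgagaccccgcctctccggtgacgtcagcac

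Across the 42 members no gene passed the test in either direction (limma with Benjamini-Hochberg adjustment over all genes, smallest adjusted p = 0.325), where 0.399% of all genes tested were called (0.0238% higher and 0.375% lower). Without adjustment Agr2 and Creb3l4 had p under 0.05 on the higher side, as did 2.86% of all genes, and Ppp1r15a on the lower side, as did 7.9%. Most differences were small and above 0: 33 of 42 were above 0, against 60.6% of all genes, and their median was 0.37, against 0.16 over all genes tested. In 17 members both CD44+ values lay above both CD44- values, where 22.4% of all genes did so, and in 5 members they lay below, where 17.2% of all genes did so. Among the 17201 genes well above background on all 4 arrays, as all 42 members were, these shares were 25.7% and 10.7%. The median difference of those genes was 0.24. At a 2-fold size or more there were 2 members higher without overlap, Agr2 and Creb3l4 (3.8% of all genes), and 1 lower, Ppp1r15a (9.66% of all genes). The standard errors of the members ran between 0.44 and 0.64, so a difference near the members' median was smaller than its own error.

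**Figure D1:**
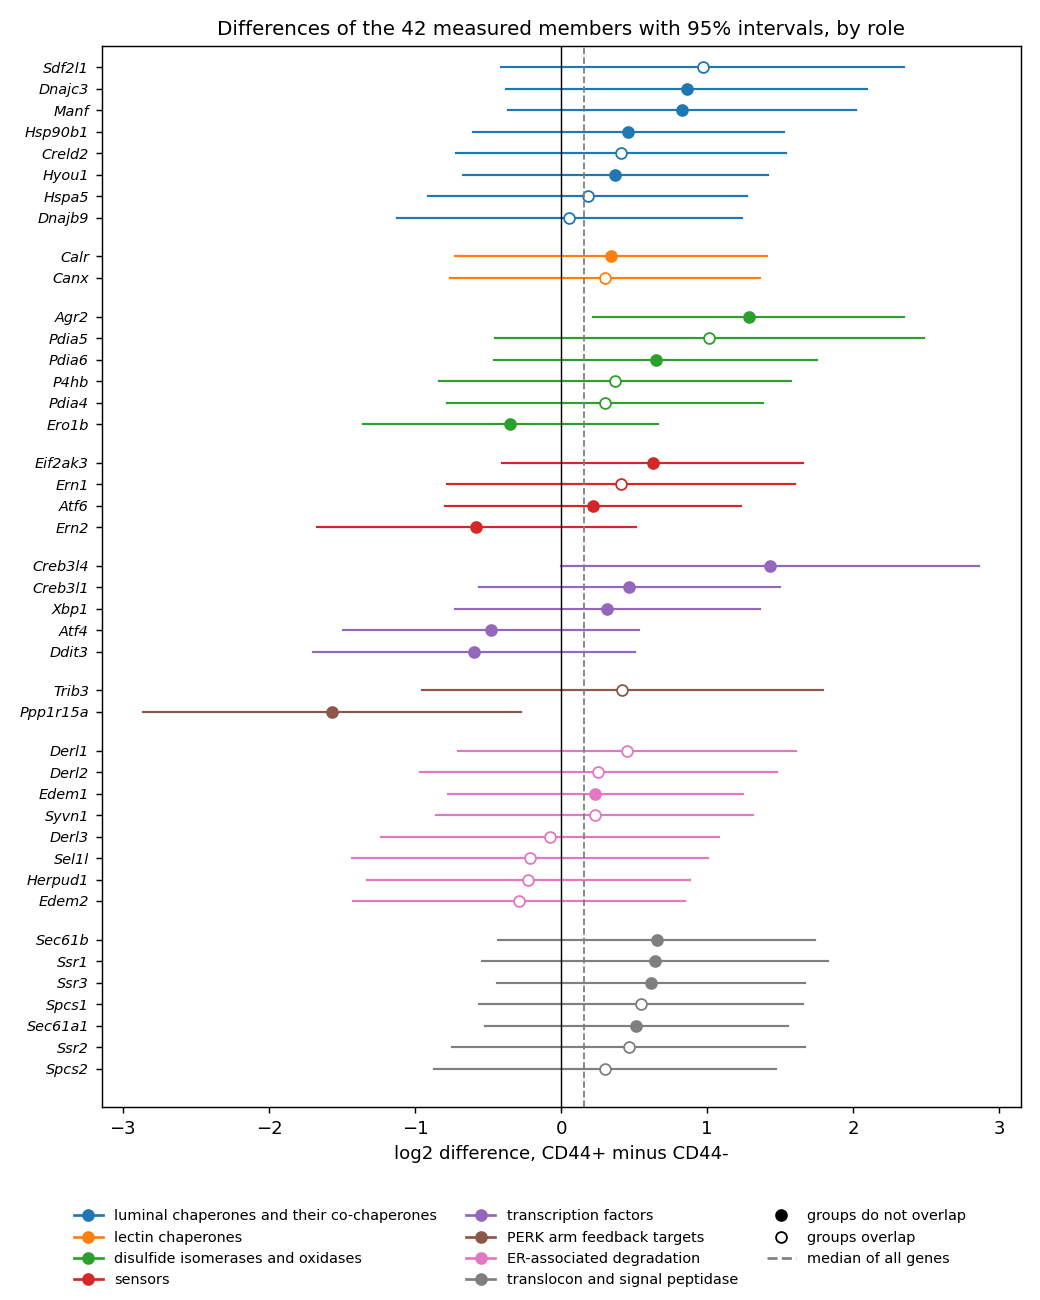
Log2 differences of the 42 measured members, CD44+ minus CD44-, on the horizontal axis, grouped by role, with bars for the 95% interval of the fit; filled points mark members whose groups do not overlap and the dashed line the median of all genes (0.16). The bars of Agr2, Creb3l4 and Ppp1r15a leave out 0, and every translocon and signal peptidase gene lies right of the dashed line.

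The luminal chaperones hold unfolded proteins in the ER and keep them soluble. All 8 measured had a difference above 0, with a median of 0.43 and a range of 0.06 to 0.97. In 4 of them, Hsp90b1, Hyou1, Dnajc3 and Manf, the CD44+ values were higher without overlap, as in 22.4% of all genes. Hspa5 encodes BiP, the main ER chaperone and the usual readout of the response. It stood at 6.34 and 5.97 in CD44+ cells, against 6.30 and 5.64 in CD44- cells. These values overlapped, with a difference of 0.18 ± 0.47 (SE, n = 2 each, limma adjusted p = 0.915) and a 95% interval of -0.91 to 1.27, and the sign turned when CD44+ replicate 1 or CD44- replicate 2 was left out. Hsp90b1, the ER form of the HSP90 chaperones, had 6.24 and 5.96, against 5.92 and 5.36 in CD44- cells. Its lowest CD44+ value exceeded its highest CD44- value by less than the gap between its CD44+ arrays, and the difference was 0.46 ± 0.46 (SE, limma adjusted p = 0.807).

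Larger differences in this role belonged to a co-chaperone and to a small protein that BiP binds. Dnajc3 encodes p58IPK, which brings clients to BiP. Its levels were 3.20 and 3.01 in CD44+ cells, against 2.87 and 1.63 in CD44- cells, a difference of 0.86 ± 0.54 (SE, limma adjusted p = 0.711). This is the brightest of its 4 probes. The others gave 0.73, 0.31 and 0.21, the last 2 with overlap, and the mean over the probes was 0.53. Manf, an ER-resident and secreted protein raised by ER stress, had 4.71 on both CD44+ arrays, against 4.43 and 3.32 on the CD44- arrays, a difference of 0.83 ± 0.52 (SE, limma adjusted p = 0.711). For both genes CD44- replicate 1 was close to the CD44+ values and CD44- replicate 2 was far below. Sdf2l1, which with a J-domain partner keeps BiP clients from aggregating, had the highest difference of the role, 0.97, but its groups overlapped. Creld2 (0.41), Hyou1 (0.37), a nucleotide exchange factor of BiP, and Dnajb9 (0.06), a J-protein that restrains IRE1, complete the role. The 3 probes of Dnajb9 disagreed in sign, with 0.06, -0.05 and -0.28.

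The lectin chaperones calreticulin and calnexin retain glycoproteins until they are folded. Calr had a difference of 0.34 and no overlap, and Canx had 0.30 with overlap. On each of them CD44- replicate 2 was the lowest array.

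The disulfide isomerases and oxidases make and shuffle the disulfide bonds of secreted proteins. Of 6 measured, 5 were above 0 (median 0.51). Agr2 had 8.90 and 9.004 in CD44+ cells, against 7.98 and 7.36 in CD44- cells. Every CD44+ value was higher than every CD44- value, and the gap between the groups was larger than the spread within either. The difference was 1.28 ± 0.46 (SE), 2.43-fold, with a 95% interval of 0.22 to 2.35, but it did not pass over all genes (limma adjusted p = 0.330). It kept its sign without any 1 array, between 0.97 and 1.596.

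Pdia6, an isomerase that also acts on IRE1, had 6.13 and 6.52 in CD44+ cells, against 6.03 and 5.33 in CD44- cells, a difference of 0.65 ± 0.48 (SE, limma adjusted p = 0.770). Its groups did not overlap, though CD44+ replicate 1 and CD44- replicate 1 were nearly level. This is the brightest of its 3 probes. The others gave 0.58 and 0.10, each with overlap, and the mean over the probes was 0.44. Pdia5 had 2.81 and 2.46, against 2.54 and 0.70, so its difference of 1.014 lay in CD44- replicate 2 alone. P4hb (0.37), the classical protein disulfide isomerase, and Pdia4 (0.30) overlapped. Ero1b, an oxidase that recharges the isomerases, was the exception. It stood at -0.80 and -0.995 in CD44+ cells, against -0.49 and -0.61 in CD44- cells, lower without overlap by a difference of -0.35 ± 0.44 (SE, limma adjusted p = 0.832).

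The sensors did not share 1 direction. Eif2ak3, which encodes PERK, had 2.37 and 2.17 in CD44+ cells, against 1.47 and 1.82 in CD44- cells, with no overlap and a difference of 0.63 ± 0.45 (SE, limma adjusted p = 0.762). Here CD44- replicate 1 was the lowest array, unlike the pattern of the chaperones. Atf6 had 0.53 on both CD44+ arrays, against 0.43 and 0.20 on the CD44- arrays, a difference of 0.22 ± 0.44 (SE, limma adjusted p = 0.891). Ern1, the IRE1 gene that most cells express, had -1.75 and -2.48 in CD44+ cells, against -2.11 and -2.95 in CD44- cells. These overlapped, with a difference of 0.41 ± 0.52 (SE, limma adjusted p = 0.831) that became -0.01 without CD44- replicate 2. Ern2, the second IRE1 gene, known for its expression in mucous epithelium, had 1.34 and 0.68 in CD44+ cells, against 1.77 and 1.41 in CD44- cells. It was lower in CD44+ cells without overlap, by -0.58 ± 0.47 (SE, limma adjusted p = 0.782).

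Among the transcription factors, the XBP1 and CREB3 family genes lay above 0 and those of the PERK arm below. Creb3l4, an ER-bound factor of the CREB3 family, had 4.34 and 5.53 in CD44+ cells, against 2.85 and 4.16 in CD44- cells. The groups did not overlap, but the replicates of each group were more than 1 unit apart, and the difference was 1.43 ± 0.62 (SE), 2.69-fold, with a limma adjusted p of 0.464. Leaving out 1 array at a time gave 0.78 to 2.08. Creb3l1, of the same family, had -1.94 and -2.32, against -2.55 and -2.65 in CD44- cells, a difference of 0.47 ± 0.45 (SE, limma adjusted p = 0.799) without overlap. Xbp1, the factor whose mRNA IRE1 splices, had 2.13 and 1.99, against 1.98 and 1.504 in CD44- cells, a difference of 0.32 ± 0.45 (SE, limma adjusted p = 0.847). CD44+ replicate 2 and CD44- replicate 1 were almost equal for Xbp1, and the array does not tell its spliced form from the unspliced one.

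Atf4, translated when PERK slows other translation, had 1.33 and 1.16 in CD44+ cells, against 1.84 and 1.61 in CD44- cells. The groups did not overlap and the arrays of each group were within 0.5 of each other, with a difference of -0.48 ± 0.44 (SE, limma adjusted p = 0.795). Ddit3, which encodes CHOP, had -0.10 and 0.49, against 0.52 and 1.05 in CD44- cells, a difference of -0.60 ± 0.48 (SE, limma adjusted p = 0.780). Its groups were separated by a narrow margin between CD44+ replicate 2 and CD44- replicate 1.

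Ppp1r15a encodes GADD34, which ATF4 and CHOP raise and which restores translation by removing the phosphate that PERK adds to eIF2α. It had the lowest difference of all members: -1.41 and -1.93 in CD44+ cells, against -0.76 and 0.55 in CD44- cells. Both CD44+ values lay below both CD44- values, with CD44- replicate 2 the highest array. The difference was -1.57 ± 0.56 (SE), 2.96-fold lower in CD44+ cells, with a 95% interval of -2.86 to -0.27 and a limma adjusted p of 0.325. Without CD44- replicate 1 the difference was -2.22 and passed (limma adjusted p = 0.0223), and without CD44- replicate 2 it was -0.91 and did not. In each of these fits the lone CD44- array is assumed to vary like the CD44+ arrays. Over all 12 alternatives its adjusted p ran between 0.0223 and 1.00. Trib3, a pseudokinase that CHOP raises and that dampens ATF4, had -0.62 and -1.53, against -2.17 and -0.82 in CD44- cells. The groups overlapped, with a difference of 0.42.

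**Figure D2:**
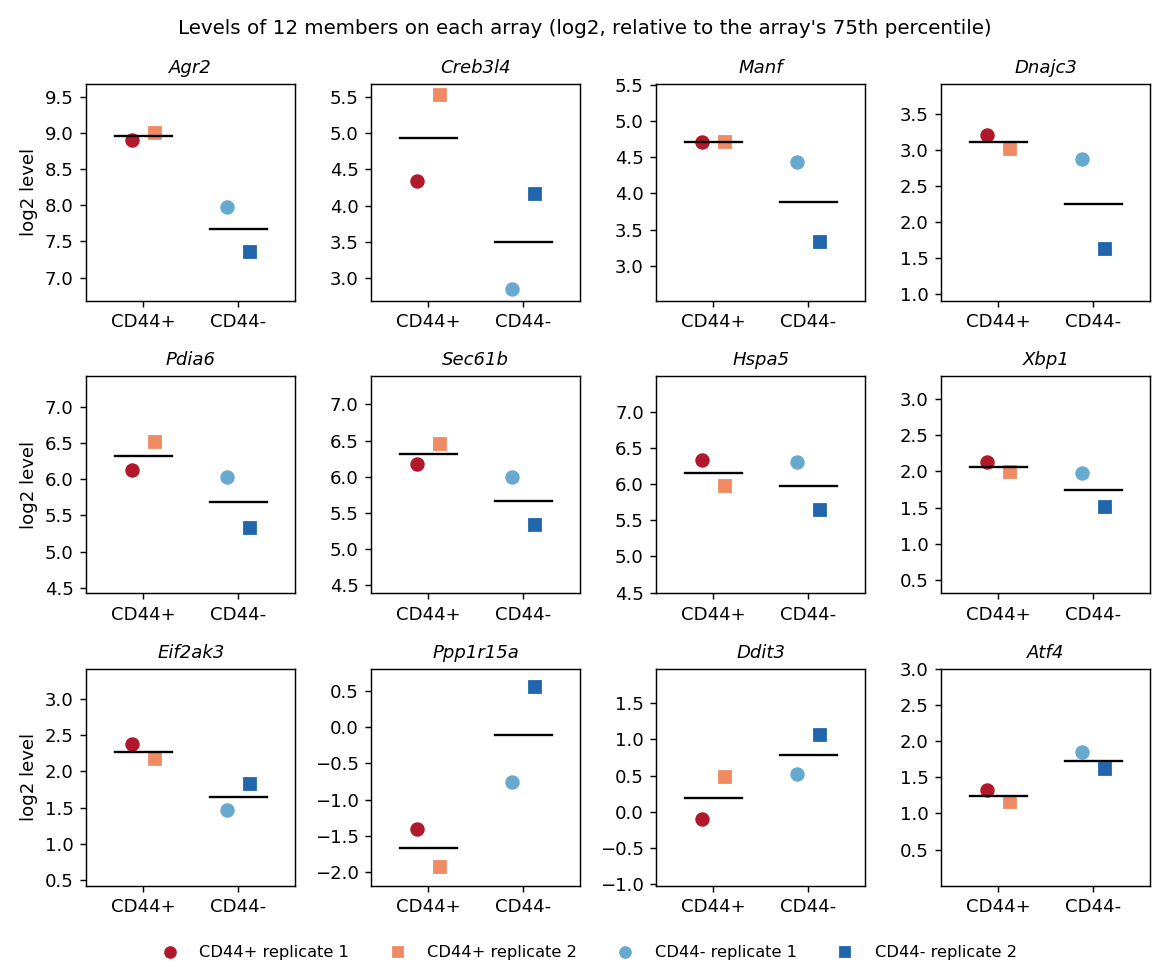
Levels of 12 members on each array (vertical axis, log2 relative to the 75th percentile of the array; each panel spans 3 units on its own scale), with CD44+ left of CD44- and a line at the mean of each group. On the brightest probe of each gene, Agr2, Creb3l4, Manf, Dnajc3, Pdia6, Sec61b, Xbp1 and Eif2ak3 are higher in CD44+ cells without overlap. Ppp1r15a, Ddit3 and Atf4 are lower without overlap, and Hspa5 overlaps.

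ER-associated degradation extracts misfolded proteins from the ER and marks them with ubiquitin. Of its 8 members 4 were above and 4 below 0, with a median of 0.08. The split moved with the arrays: 7 of 8 were above 0 without CD44+ replicate 1 (median 0.20), 2 of 8 without CD44+ replicate 2 (-0.10), 6 of 8 without CD44- replicate 1 (0.22) and 4 of 8 without CD44- replicate 2 (-0.09). Derl1 (0.45), Derl2 (0.25) and Edem1 (0.23) were above 0, as was Syvn1 (0.23), the ubiquitin ligase HRD1. Its partner Sel1l (-0.21) was below 0, as were Herpud1 (-0.22), Edem2 (-0.29) and Derl3 (-0.08). Only Edem1, which helps pick glycoproteins for degradation, was higher without overlap, as were 22.4% of all genes. None of the 8 differed by more than its standard error.

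The translocon and signal peptidase genes bring new proteins into the ER and trim their signal peptides. All 7 were above 0 on the brightest probe of each gene, with a median of 0.55 and a range of 0.30 to 0.65. Sec61b, a subunit of the Sec61 channel, had 6.18 and 6.45 in CD44+ cells, against 5.99 and 5.33 in CD44- cells, a difference of 0.65 ± 0.47 (SE, limma adjusted p = 0.764). Ssr1, a subunit of the translocon-associated TRAP complex, had 4.08 and 5.17, against 4.001 and 3.97 in CD44- cells. On this brightest of its 2 probes the difference of 0.64 ± 0.51 (SE, limma adjusted p = 0.780) rested on CD44+ replicate 2. The dimmer probe gave 0.62 with overlap, at 0.83 and -1.93 in CD44+ cells, against 0.75 and -3.09 in CD44- cells. Ssr3, of the same complex, had 5.24 and 5.44, against 4.99 and 4.46 in CD44- cells, a difference of 0.61 ± 0.46 (SE, limma adjusted p = 0.770).

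Sec61a1, the pore of the channel, had 6.48 and 6.21, against 6.01 and 5.65 in CD44- cells, a difference of 0.51 ± 0.45 (SE, limma adjusted p = 0.788). On their brightest probes Sec61b, Ssr1, Ssr3 and Sec61a1 were higher without overlap, as were 22.4% of all genes. Ssr2 (0.46), Spcs1 (0.55) and Spcs2 (0.30) overlapped. A second probe of Sec61a1 gave 0.47 with overlap, but its dimmest probe gave -0.54, and the mean over the probes was 0.15. Of the 18 members with more than 1 tested probe, Sec61a1 and Dnajb9 were the 2 whose probes differed in sign.

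The members' differences leaned more on CD44- replicate 2 than on CD44- replicate 1. CD44- replicate 2 was the lowest array for 27 of 42 members, against 43.2% of all genes. This held for 7 of 7 translocon and signal peptidase genes, 7 of 8 luminal chaperones and 5 of 6 isomerases and oxidases, but for 2 of 8 degradation genes and 0 of 2 PERK feedback targets. On CD44- replicate 1, 32 members were within 0.5 of their CD44+ mean, and on CD44- replicate 2, 13 were. The share of all genes within 0.5 was not counted, and 0.5 is wider than the members' median difference of 0.37. The level on CD44- replicate 2 minus that on CD44- replicate 1 had a median of -0.57 over the members and -0.15 over all genes.

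Without CD44- replicate 2 the median difference of the members was 0.10, against 0.05 over all genes, and 27 of 42 were above 0, against 53.9% of all genes. Without CD44- replicate 1 it was 0.65, against 0.26. Without CD44- replicate 2 the translocon and signal peptidase genes had a median of 0.32, with 5 of 7 above 0 and Ssr2 and Spcs2 at -0.12 and -0.18. The isomerases and oxidases then had 0.03 and the luminal chaperones 0.17. CD44- replicate 2 is also the array with the lowest epithelial and the highest fibroblast and endothelial marker sums, as given above. Its correlation with the CD44+ arrays over all genes was 0.877 and 0.927, against 0.948 and 0.963 for CD44- replicate 1. The part of this makeup in the members' differences was not tested.

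**Figure D3:**
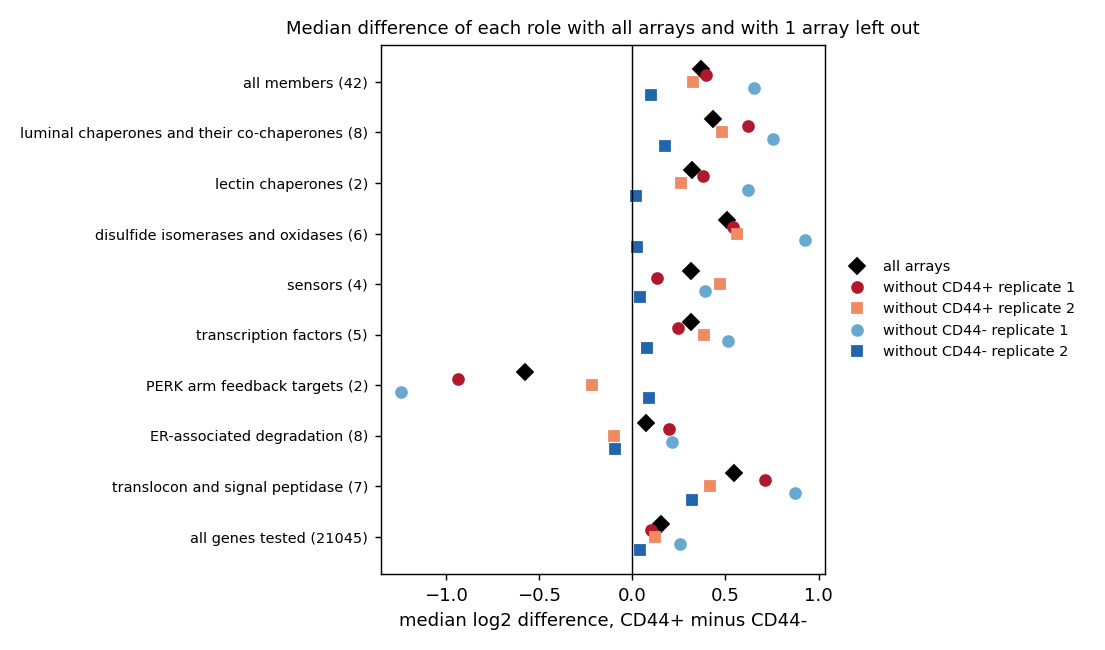
Median log2 difference, CD44+ minus CD44-, of each role (number of genes in brackets), of all 42 members and of all genes tested, with all 4 arrays (diamond) and with each array left out. Without CD44- replicate 2 the median of all members is 0.10, while without CD44- replicate 1 it is 0.65.

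Members with and without the promoter element had medians close to each other. The 10 members with an ER stress element had a median difference of 0.32, between -0.35 (Ero1b) and 0.86 (Dnajc3), with 8 of 10 above 0. The 24 measured members with a window and no match had a median of 0.34, with 18 of 24 above 0. Agr2, Creb3l4 and Ppp1r15a were all among those without a match. Beyond the members, 27 other genes held the element, and the 8 of these that were tested had a median of 0.60, with 7 of 8 above 0. Of the genes in the further pathway lists described below, 110 had a window and 0 held the element.

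Other genes of the same pathway were read from 7 lists with 131 genes, of which 129 were tested and none passed in either direction (limma, where 0.399% of all genes were called), while 7 of 129 had an unadjusted p under 0.05, as did 2.86% of all genes on the higher and 7.9% on the lower side. Their median was 0.33, with 104 of 129 above 0. In N-glycosylation, which adds and trims the sugars that calnexin and calreticulin read, all 15 were above 0 (median 0.49), with Ostc at 0.82 and Tusc3 at 0.77, both subunits linked to the oligosaccharyltransferase. In the list of ER export and retrieval 20 of 21 were above 0 (median 0.43), led by Kdelr2 (0.97) and Kdelr1 (0.87), receptors that return escaped chaperones to the ER. Of the other translocon genes 13 of 15 were above 0 (median 0.39), with the signal peptidase subunit Sec11c at 1.14 and the translocon factor Serp1 at 0.76. Without CD44- replicate 2 the median of all 129 was 0.11, those of the glycosylation and export lists were 0.20 and 0.23, and that of the other translocon genes was 0.07.

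The remaining lists were mixed. Of 19 other degradation genes 15 were above 0 (median 0.25), with Edem3 at 0.72 and Faf2 at 0.54, but without CD44- replicate 2 the list had 7 above 0 and a median of -0.14. Of 19 other sensors, factors and processing proteases 16 were above 0 (median 0.30), with the ATF6-cutting protease gene Mbtps2 at 1.42 and Eif2s1 at 0.76. The 19 ATF4 and CHOP targets had a median of 0.08, with 10 above 0. Their largest differences were below 0, as were those of Ppp1r15a, Ddit3 and Atf4, while Trib3 (0.42) and Eif2ak3 (0.63) were above 0. Atf3, a stress-induced factor, had 1.68 and 2.76 in CD44+ cells, against 3.11 and 5.14 in CD44- cells (-1.90 ± 0.72, SE, limma adjusted p = 0.364). Phgdh, the first enzyme of serine synthesis, had a difference of -1.34. Among the 21 other folding enzymes 15 were above 0 (median 0.29), but the 2 largest without overlap were below: the collagen chaperone Serpinh1 had -0.55 and 1.78 in CD44+ cells, against 2.98 and 5.83 in CD44- cells, a difference of -3.79, and Pdia2, well above background on 1 of 2 CD44+ arrays, had -2.78. The Serpinh1 values ran in the same order over the 4 arrays as the summed fibroblast markers. So did those of Pdia2, Atf3 and the member Ddit3, while those of Ppp1r15a and Atf4 did not. The part of fibroblasts in these values was not tested.

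**Figure D4:**
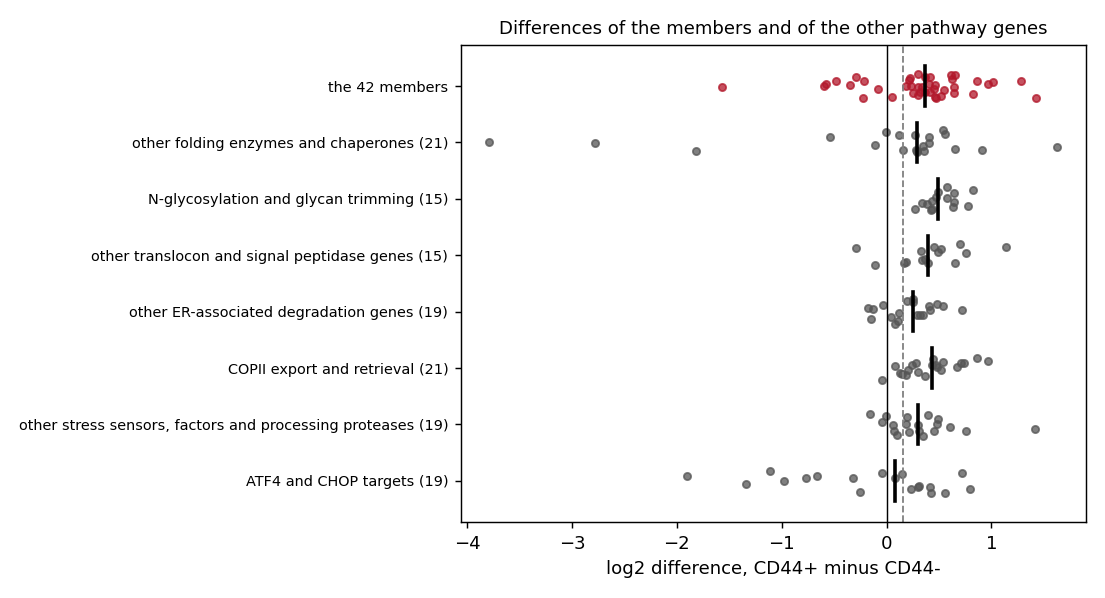
Log2 differences, CD44+ minus CD44-, of the 42 members (top, red) and of the genes of 7 further pathway lists (number tested in brackets); each point is a gene, spread vertically only for sight, with black bars at the median of each list and a dashed line at the median of all genes (0.16). All 15 N-glycosylation genes lie above 0, while the ATF4 and CHOP targets spread on both sides with a median of 0.08.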

How the data were processed

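The authors deposited 1 scanner table per array, written by Agilent Feature Extraction 10.1.1.1 per the file headers, against version 9.5 in the submitters' processing notes, a difference not settled here. The processed signal is a background-subtracted intensity on a linear scale, per the file headers. The deposited value table holds a linear ratio of each probe to its median over the arrays, after 1 factor per array, as read from its values. Other columns used are 0 or 1 flags of the authors' software. Outlier spots were left out, spots of a probe averaged as log2, and the 75th percentile of the array subtracted. Accessions were matched to RefSeq symbols (17016 genes named, tested or not), and an accession without a symbol was kept as a gene of its own. Probes well above background on both arrays of a group were tested, with the brightest probe per gene, by limma 3.58.1 in R 4.3.3 (8.01 total degrees of freedom), adjusted by Benjamini-Hochberg over 21045 genes, with 0.05 as the threshold. The fit was tried on simulated arrays with independent noise drawn from its own variance model. That check cannot show how it behaves where replicates are as unlike as the 2 CD44- arrays. Between 53.1% and 69.6% of gene spots were well above background, and precision is limited by having 2 arrays a group.

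Values on each array are given for members whose groups do not overlap, up to 16 by size, and for Hspa5, Xbp1, Atf4, Atf6, Ddit3, Ern1, Ern2, Eif2ak3 and Agr2. Others given array by array, Ero1b, Pdia5 and Trib3, were chosen after their values were seen. The genes whose order was set against the fibroblast markers were also chosen after their values were seen. Up to 2 genes per pathway list are named, by size without overlap. The members, lists and rules were chosen with earlier results of these data known. All 4 arrays lie on 1 slide with 1 scan, so no batch could be set against the groups.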

Additional observations from a re-analysis of the deposited data

How the results depend on the processing

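The count of 84 genes called (5 higher and 79 lower in CD44+ cells) moved under most alternatives: 748 (121 higher, 627 lower) with each array scaled to its median, 6 (0 and 6) with quantile normalization, 541 (98 and 443) with normexp background correction, 753 (121 and 632) from the deposited table, 24 (0 and 24) without a filter on dim probes, and 2 to 1569 with 1 array left out, the highest without CD44- replicate 1 and the lowest without CD44+ replicate 2. The normexp alternative used the median spot signal and was chosen after seeing the data, since the files hold no mean signal, and the slide as a block was not run, since there is 1 slide. With the replicate number as a block 1829 genes were called (336 and 1493), and of the members Ppp1r15a passed (adjusted p = 0.0308, 0.0223 to 1.00 over its 12 alternatives). The labels do not say that the numbers pair the samples, and the correlation of the replicate deviations, 0.347, comes from 2 pairs only. Members called were otherwise 0, and 0 to 1 with 1 array left out, where Ppp1r15a passed without CD44- replicate 1, a fit in which the lone CD44- array is assumed to vary like the CD44+ arrays. Members whose groups did not overlap numbered 22 (17 higher and 5 lower, where 22.4% and 17.2% of all genes were). The counts were the same with all 4 arrays above background, where 25.7% and 10.7% of all genes were. Quantile normalization gave 16 (10 higher and 6 lower, against 25.3% and 17.3% of all genes). Normexp gave 17 (13 and 4, against 19.4% and 9.9%), and the mean of all tested probes of a gene 19 (14 and 5, against 21.9% and 18.1%). There were 27 to 36 with 1 array left out, where 30.9% to 49.4% of all genes were higher and 27% to 32.3% lower. The members' median of 0.37 ran between 0.10 and 0.65 with 1 array left out and between 0.21 and 0.47 otherwise. Scaling to the median shifted all genes by 0.105. The members' median lay 0.21 above that of all genes, 0.095 with quantile normalization, 0.12 with normexp, 0.076 without the filter, 0.13 with all 4 arrays above background, and 0.054 without CD44- replicate 2. Of the 20 members given array by array under the rule, Hspa5 changed sign with quantile normalization (-0.036), without CD44+ replicate 1 (-0.00079) and without CD44- replicate 2 (-0.15 to 0.51 over the arrays left out), and Ern1 without CD44- replicate 2 (-0.012 to 0.84); the other 18 kept their sign in all 12 alternatives. The cause of these shifts was not tested.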
